A study of Rattus norvegicus with 22 samples.

Results

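The enzymes that remove superoxide and hydrogen peroxide were followed in the livers of 22 male Sprague–Dawley rats: the superoxide dismutases Sod1, Sod2 and Sod3, catalase (Cat) and the glutathione peroxidases Gpx1, Gpx2, Gpx3, Gpx4 and Gpx7. The members were chosen by gene name, as every non-control probe of the array that carries one of these 9 names, and they were put together with the higher Gpx1 of the 14-month rats already known. The 9 genes were represented by 11 probes, out of 30367 non-control probes with 26276 gene names. Each liver was hybridised to its own Agilent two-colour rat array, with the rat's RNA in Cy5 and a common reference from healthy rats 10 weeks of age in Cy3. After 3 months of feeding there were 5 rats on control diet (CD 3) and 5 on BASE-diet (BD 3), and after 14 months 6 rats on each (CD 14 and BD 14). CD rats received a semi-synthetic control diet. BD rats received the BASE-diet, a semi-synthetic diet with 6% salmon fat in place of lard, 8% linden flower extract, 8% pumpkin puree and 1% probiotic bacteria, and with other amounts of rapeseed oil, lard and wheat starch. Several components therefore changed together, and the months of feeding ran together with the age of the rats.

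Superoxide dismutases turn superoxide into hydrogen peroxide, Sod1 with copper and zinc in the cytosol, Sod2 with manganese in mitochondria and Sod3 outside the cell. Hydrogen peroxide is then broken down by catalase, a heme enzyme of peroxisomes, and by glutathione peroxidases, most of which use glutathione as the electron donor. Gpx1, Gpx2, Gpx3 and Gpx4 carry selenocysteine, which ribosomes insert at a UGA codon when the messenger holds a hairpin called SECIS in its 3′ untranslated region, while Gpx7 carries cysteine instead. Liver is rich in catalase and Gpx1, and in selenium deficiency the Gpx1 messenger is lost early while the Gpx4 messenger is kept.

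What a value measures depends on where its probe lies. Probes were 60 bases long, and their positions are those of the rat build rn4 in the deposited files. Gpx1 had a single probe (A_42_P805300), spotted 10 times on each array, at chr16_random:1046407-1046466 on the plus strand, in sequence not placed within chromosome 16 in that build. No annotation of that build was used, so whether a probe lies in coding or untranslated sequence was read from its letters (open frames, stop codons and polyadenylation signals), and for Gpx1 from background knowledge of its SECIS hairpin. By that reading the Gpx1 probe covers the start of the hairpin, and the conserved ATGA at which the hairpin's core begins is in capitals in the 30 of its 60 bases shown.
Gpx1, 3′ untranslated region: ATGAcggtgtttcctctaaatttacatgga
Gpx4 and Gpx2 each had a probe at the end of the messenger, around the polyadenylation signal AATAAA (capitals, with 30 bases shown), and a second probe in the coding sequence. They are shown because the probes of Gpx4 differed in their values. The Gpx4 probes lie at chr7:11162522-11162581 (A_64_P112467) and chr7:11163817-11163876 (A_64_P129796) on the minus strand. The Gpx2 probes lie at chr6:99372423-99372482 (A_64_P051430) and chr6:99372734-99372793 (A_64_P059565), also on the minus strand, and the second ends with the stop codon (capitals).
Gpx4, 3′ end: ctgccttgtgggAATAAAatgtagaaatgt
Gpx4, coding: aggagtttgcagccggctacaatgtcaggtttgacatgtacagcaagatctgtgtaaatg
Gpx2, 3′ end: ggtttagagtccAATAAAgggtaggaatga
Gpx2, coding: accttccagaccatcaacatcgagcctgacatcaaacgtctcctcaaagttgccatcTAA
The catalase probe (A_44_P362954) was placed at chr3:88683063-88685007, a stretch of 1945 bases for a probe of 60, so it crosses at least 1 intron. It is shown because catalase had the widest spread of the well measured members.
Cat, across exons: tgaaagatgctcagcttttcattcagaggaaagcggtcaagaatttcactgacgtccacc

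Signal set which members could be read. Probes of Sod1, Sod2, Sod3, Cat, Gpx1 and Gpx4 were well above background in Cy5 on all 22 arrays, and no member probe was saturated in either channel. Gpx2, the glutathione peroxidase of the gut lining, was well above background on 21 arrays with its 3′ end probe, at processed Cy5 signals of 9.62 to 192, and on 15 arrays with its coding probe, which was not tested. Gpx3, the form secreted into plasma and made mostly in kidney, was well above background on 19 arrays, at signals of 3.47 to 93.0. The reference channel of Gpx3 was well above background on 13 arrays, that of the Gpx2 coding probe on 12 and that of the Gpx2 3′ end probe on 21. Gpx7, an enzyme of the endoplasmic reticulum, was well above background on 21 arrays. All 9 genes entered the test through at least 1 probe. Signals of different probes are not comparable, and all values below are log2 ratios of the rat to the reference unless a signal is named.

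**Figure D1:**
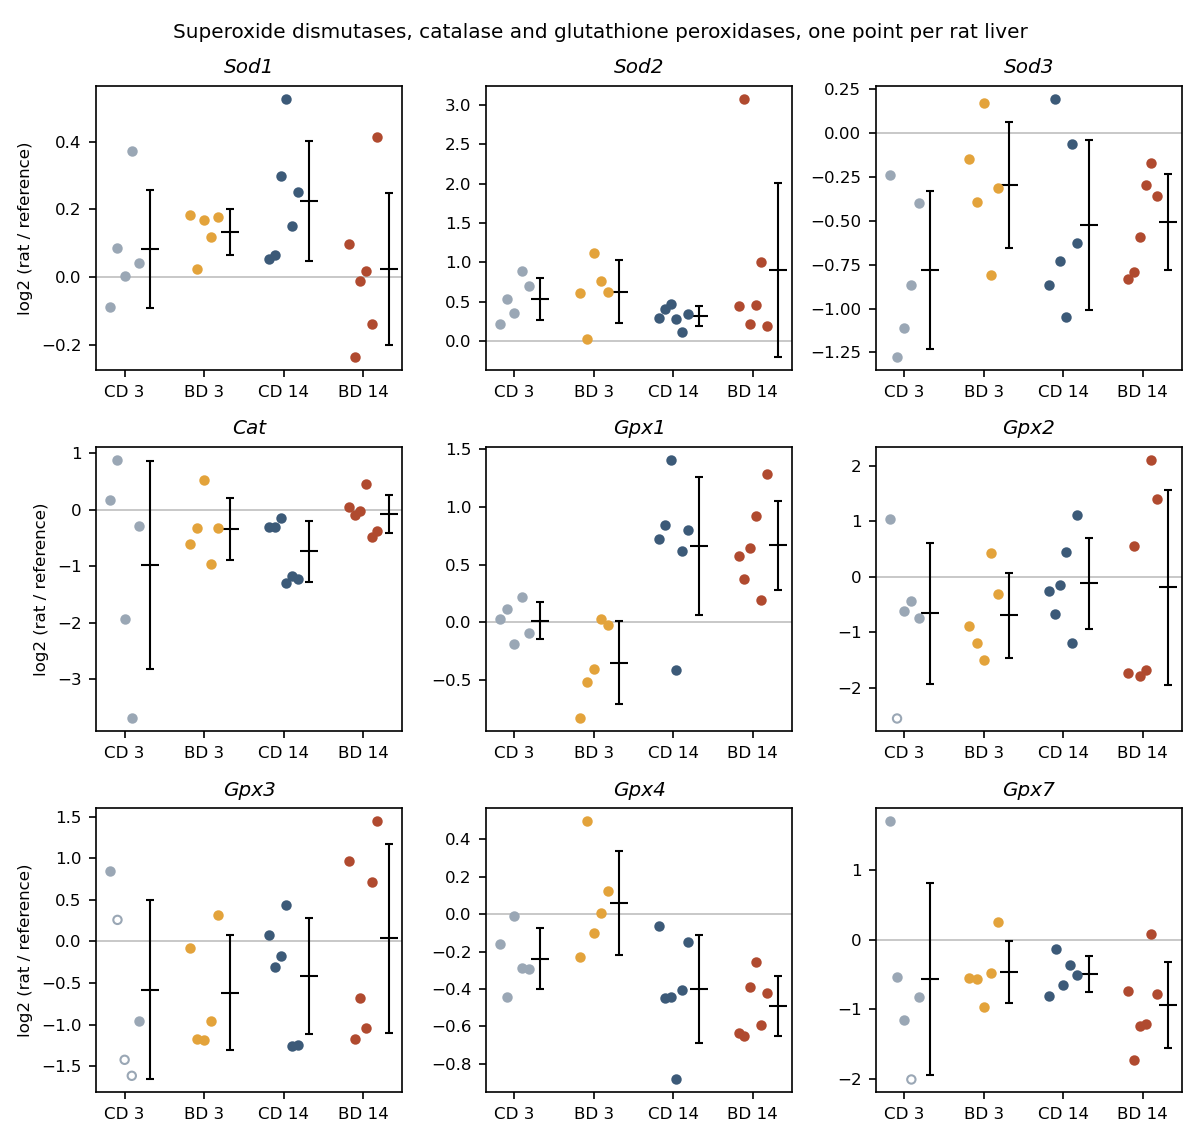
Log2 ratio of rat to reference (vertical axis, a scale of its own for each gene) of the 9 members in each liver, by group, with the mean and SD of the group in black; open circles are arrays where the probe was not well above background. Gpx1 is the member whose 14-month groups lie highest against the 3-month groups, and Sod2 of one BD 14 rat stands at 3.08.

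Features of the arrays touch these values. The share of non-control spots well above background in Cy5 was 52.4% to 93.6% over the arrays. It was lowest in CD 3 replicate 4, where the mean of 8 hepatocyte markers was also lowest (−1.63, against −0.37 to 0.45 in the other CD 3 rats). CD 3 replicate 1 and CD 14 replicate 1 had 2607 and 2379 non-uniform spots, against at most 37 on any other array. The arrays lay on 5 slides, named A to E here: A held CD 3 replicate 1 and BD 3 replicates 1 and 2, B held BD 3 replicates 3 to 5 and CD 14 replicates 1 to 3, C held CD 14 replicates 4 and 5 and all 6 BD 14, D held CD 3 replicates 2 to 4, and E held CD 3 replicate 5 and CD 14 replicate 6. The 8 hepatocyte markers were well above background on all arrays. In bulk liver, fewer cells of a type and less RNA per cell cannot be told apart.

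Gpx1, the abundant cytosolic and mitochondrial glutathione peroxidase, was near the reference in CD 3 rats and at or below it in BD 3 rats. Its log2 ratios were 0.03, 0.11, −0.19, 0.22 and −0.10 in CD 3, and −0.84, −0.52, −0.40, 0.03 and −0.02 in BD 3. In CD 14 they ran from −0.42 over a median of 0.76 to 1.41, and in BD 14 from 0.20 over 0.61 to 1.28. Every BD 14 rat was above every BD 3 rat, and 5 of 6 CD 14 rats were above all CD 3 rats, the exception being CD 14 replicate 4, which was below all CD 3 rats. Mean and SD were 0.02 ± 0.16 for the 5 CD 3 rats and −0.35 ± 0.36 for the 5 BD 3 rats, beside 0.66 ± 0.60 for the 6 CD 14 rats and 0.67 ± 0.39 for the 6 BD 14 rats. The difference between 14 and 3 months was 0.65 ± 0.26 (SE) on control diet, a ratio of 1.57, and 1.02 ± 0.26 (SE) on BASE-diet, a ratio of 2.03. These differences helped to choose the genes described here and are given without a test.

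The 10 spots of the Gpx1 probe agreed closely, with an SD of at most 0.0861 over the spots of an array, so the spread above is between arrays. Unscaled processed Cy5 signals of Gpx1 were 27819 to 65797 in CD 3, 24837 to 50507 in BD 3, 35571 to 91589 in CD 14 and 45222 to 87177 in BD 14. The reference channel moved slightly the other way: between BD 3 and BD 14 the mean log2 Cy5 signal differed by 0.85 and the mean log2 Cy3 signal by −0.16, and between CD 3 and CD 14 by 0.50 and −0.15. With Cy5 alone after quantile normalization, the differences were 0.41 ± 0.24 (SE) on control diet and 0.76 ± 0.24 (SE) on BASE-diet.

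Slides and time overlap in part for Gpx1. On slide E, the CD 14 rat (0.80) was above the CD 3 rat (−0.10). On slide B, the 3 CD 14 rats (0.72, 0.85 and 1.41) were above the 3 BD 3 rats (−0.40, 0.03 and −0.02), a contrast of diet as well as time. No slide held both BD 3 and BD 14, so there is no value for that difference within a slide. Fitted with the slide as a block, which links the slides through the other groups, it was 1.77 ± 0.41 (SE), and the difference on control diet was 0.67 ± 0.38 (SE). Slide C, with all BD 14 rats, is tied to the other slides only by CD 14 replicates 4 and 5, at −0.42 and 0.62. Combining Cy5 alone with the slide block, a setting chosen after the data were seen, gave 1.21 ± 0.32 (SE) on BASE-diet and 0.18 ± 0.29 (SE) on control diet.

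**Figure D2:**
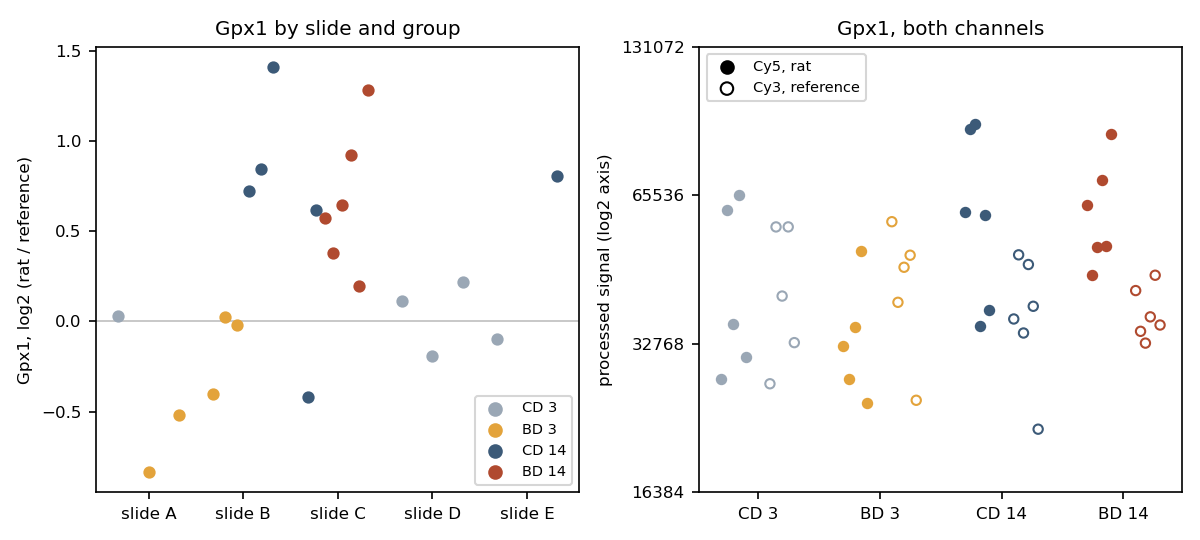
Left, Gpx1 log2 ratio of rat to reference for each array by slide, coloured by group. Right, processed Gpx1 signal (log2 axis) of the rat in Cy5 (filled) and of the reference in Cy3 (open) by group. The 14-month arrays of slides B, C and E lie above 0 except for 1 CD 14 array of slide C at −0.42, and the mean log2 Cy3 signal of the reference differs by −0.15 and −0.16 between the times.

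Red cells and macrophages also hold Gpx1, and markers of these cells were read beside it. All 7 Kupffer cell and macrophage markers tested were higher in CD 14 than in CD 3, with a median difference of 1.19 against 0.03 over all probes, and 7 of 7 were higher in BD 14 than in BD 3, with a median of 0.24 against 0.07. The summed Cy5 signal of that list was 2735 to 9412 in CD 3, 4188 to 8699 in BD 3, 5567 to 40473 in CD 14 and 5645 to 14606 in BD 14. Of 5 red cell markers tested, 4 were higher in CD 14 than in CD 3 (median 0.35) and 5 in BD 14 than in BD 3 (median 0.66). The summed red cell signal was 104034 to 326230 in CD 3, 47711 to 232357 in BD 3, 137324 to 308128 in CD 14 and 128325 to 222464 in BD 14. Each marker of both lists was well above background on at least 1 array, and their part in the Gpx1 values was not tested.

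Diet did not separate Gpx1 at either time by limma. Between BD 3 and CD 3 the difference was −0.37 ± 0.27 (SE; 95% interval −0.92 to 0.19; Benjamini-Hochberg adjusted p = 0.840). Between BD 14 and CD 14 it was 0.00 ± 0.24 (SE; 95% interval −0.50 to 0.51; adjusted p = 0.999). The test of the difference between these 2 diet effects gave 0.37 ± 0.36 (SE; adjusted p = 0.999). At 14 months the value depended on slide and on 1 rat: on slide C, where 6 BD 14 rats faced only CD 14 replicates 4 and 5, it was 0.57, and without CD 14 replicate 4 over all slides it was −0.21.

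Across the 9 genes, none was called by limma in either diet comparison or in the interaction, and none of the other 8 was called between the times. This stands against a background in which no probe of the 19434 tested was called in any of these 5 contrasts (0% of probes each). At an unadjusted p under 0.05, the counts were 0 of 9 for diet at 3 months, where 7.11% of all probes had such a p, 0 of 9 for diet at 14 months (4.60%), 0 of 8 for time on control diet (10.1%), 1 of 8 for time on BASE-diet (7.44%) and 0 of 9 for the interaction (4.80%). That 1 gene was Gpx4. With BASE-diet, 6 of 9 members were higher at 3 months, with a median difference of 0.09 beside 0.03 over all probes, and 5 of 9 at 14 months, with 0.00 beside 0.05. Without Gpx1, 6 of 8 were higher at 14 than at 3 months on control diet (median 0.15 beside 0.03) and 4 of 8 on BASE-diet (0.08 beside 0.07). No member had groups without overlap between the diets, which was so for 0.701% of all probes at 3 months and 0.773% at 14 months, or between the times on control diet (0.501%). Between the times on BASE-diet the groups of Gpx1 and Gpx4 did not overlap (2.26% of all probes), Gpx1 upwards, as used in the choice of members, and Gpx4 downwards. The study's own kind of test, described under the processing of the data, was rerun here. It also called no member for diet at either time and none of the other 8 between the times.

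**Figure D3:**
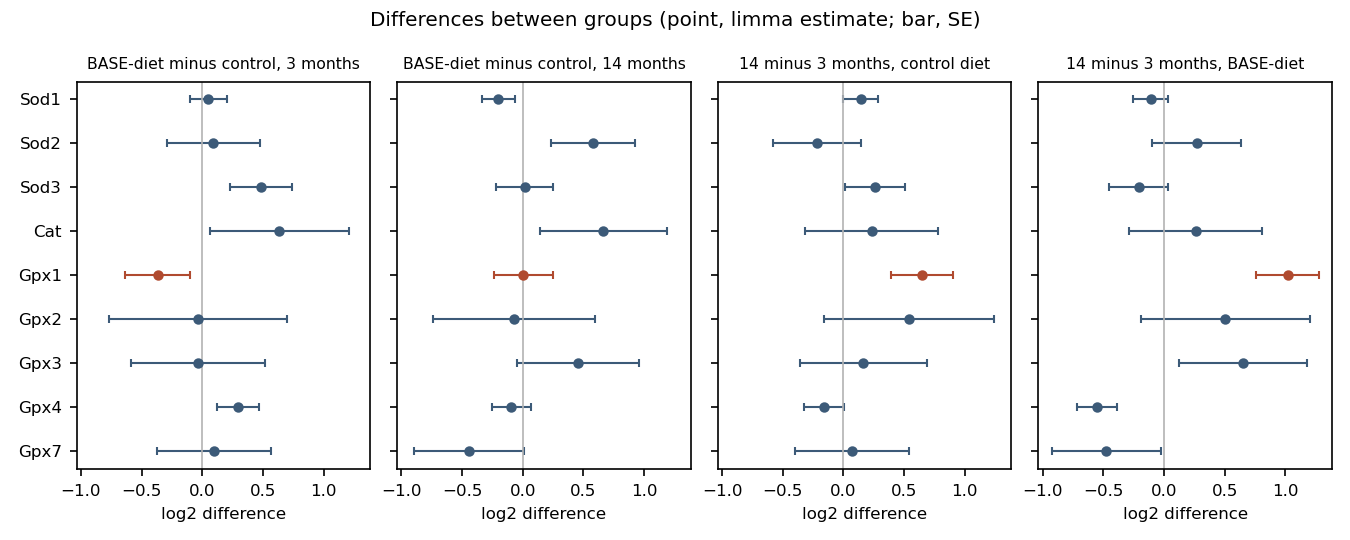
Log2 difference (horizontal axis) of each member between 2 groups, for diet at 3 and 14 months and for time on each diet; points are limma's estimates and bars the SE. Gpx1 (red) and Gpx4 lie on opposite sides of 0 for time on BASE-diet, at 1.02 and −0.55.

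Gpx4, the enzyme that reduces lipid hydroperoxides within membranes, was lower in BD 14 than in BD 3 livers with its 3′ end probe, without passing the test. With its 3′ end probe the log2 ratios were −0.16, −0.44, −0.01, −0.29 and −0.29 in CD 3, and −0.23, 0.50, −0.10, 0.00 and 0.12 in BD 3. They were −0.88 to −0.06 in CD 14 (median −0.42) and −0.65 to −0.26 in BD 14 (median −0.51). All BD 14 rats were below all BD 3 rats, while the other groups overlapped. The difference between BD 14 and BD 3 was −0.55 ± 0.17 (SE), with an unadjusted p of 0.00334 and an adjusted p of 0.396 by limma, which did not pass the threshold of 0.05. With Cy5 alone it was −0.62 ± 0.13 (SE; adjusted p = 0.0517), and with the slide as a block −0.14 ± 0.30 (SE; adjusted p = 0.991). That block ties slide C, with all BD 14 rats, to the other slides only by CD 14 replicates 4 and 5, at −0.88 and −0.41. On control diet the difference between the times was −0.16 ± 0.17 (SE; adjusted p = 0.811), with 0.06 ± 0.27 (SE) with the slide as a block and 0.15 on slide E alone.

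The coding probe of Gpx4, 1295 bases away in the genome and spotted once per array, gave −0.28 ± 0.18 (SE; adjusted p = 0.752) for the same difference, and its groups overlapped. Its log2 ratio was higher than that of the 3′ end probe in 17 of 22 livers. In BD 14 it was higher in all 6, by 0.35 to 0.67, and in CD 3 in 3 of 5. Over the 22 arrays the probes correlated at r = 0.60, and at 0.49 after subtraction of the group means. The diet differences with the coding probe were 0.33 ± 0.19 (SE; adjusted p = 0.780) at 3 months and 0.15 ± 0.17 (SE; adjusted p = 0.954) at 14 months, beside 0.30 ± 0.17 and −0.09 ± 0.16 (SE) with the 3′ end probe. At 14 months the probes thus lay on either side of 0.

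**Figure D4:**
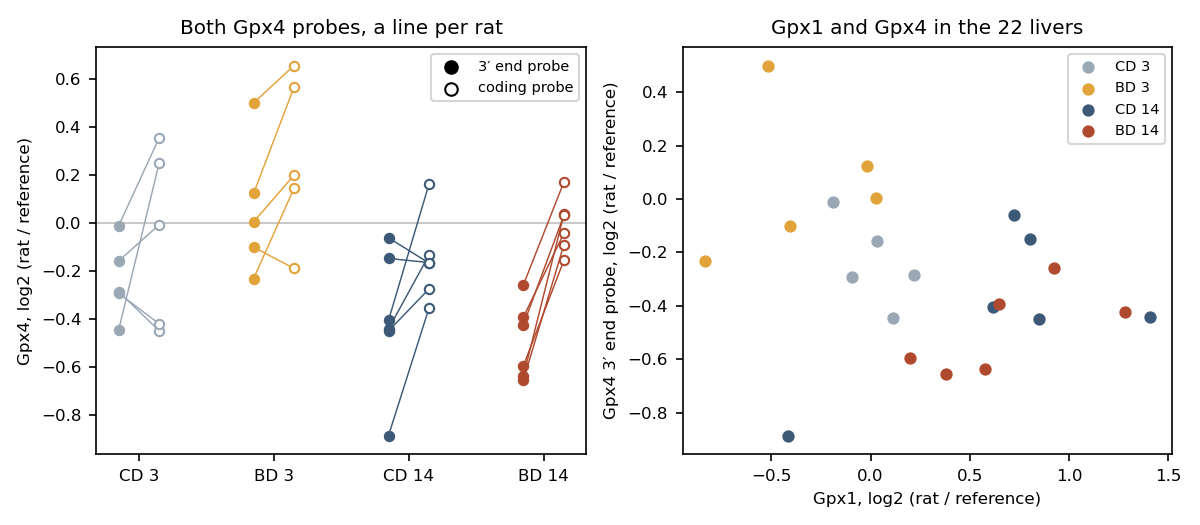
Left, log2 ratio of rat to reference with the 3′ end probe (filled) and the coding probe (open) of Gpx4, joined for each rat. Right, Gpx4 (3′ end probe) against Gpx1 in each of the 22 livers. The coding probe is above the 3′ end probe in all 6 BD 14 rats, and BD 3 and BD 14 take opposite corners of the right panel.

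Gpx1 and Gpx4 are set side by side in the plot of the 22 livers. Their ratios correlated at r = −0.31 over the 22 arrays and at 0.43 once the mean of each group was subtracted, and the negative sign was thus that of the group means. These points share the reference RNA and, in sets, a slide, and the values are descriptive. Among the 36 pairs of members, the highest correlation was that of Gpx3 with Gpx7 (r = 0.55, 21 arrays), both with low signals, and the lowest was that of Sod1 with Cat (r = −0.41, 22 arrays).

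Sod1 had a small spread, with an SD of 0.07 to 0.23 within groups. Its log2 ratios were −0.09 to 0.37 in CD 3 (median 0.04), 0.02 to 0.18 in BD 3 (median 0.17), 0.05 to 0.53 in CD 14 (median 0.20) and −0.24 to 0.41 in BD 14 (median 0.00), and all groups overlapped. The diet difference was 0.05 ± 0.15 (SE; 95% interval −0.26 to 0.36) at 3 months and −0.20 ± 0.14 (SE; 95% interval −0.49 to 0.08) at 14 months. By time it was 0.14 ± 0.14 (SE) on control diet and −0.11 ± 0.14 (SE) on BASE-diet. In Cy5 alone the diet difference at 3 months was −0.15 ± 0.16 (SE), opposite in sign, and the time difference on control diet −0.10 ± 0.15 (SE), also opposite.

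Sod2, the mitochondrial enzyme whose gene also answers to inflammatory signals, was above the reference in every liver. Its ratios were 0.21, 0.53, 0.36, 0.89 and 0.70 in CD 3, and 0.61, 0.02, 1.12, 0.76 and 0.63 in BD 3. CD 14 rats held a narrow range of 0.12 to 0.47 (median 0.32). BD 14 rats ran from 0.20 over a median of 0.45 to 3.08, the last in replicate 2, where the Cy5 signal was 7236 against 958 to 1898 in the other 5. The diet difference at 14 months was 0.58 ± 0.35 (SE; adjusted p = 0.952) and 0.14 without that rat. The same liver had the highest mean of the 3 neutrophil markers tested of all 22 (2.48, against −1.03 to 0.95 in the other BD 14 rats), and the part of those cells in the Sod2 value was not tested. At 3 months the diet difference was 0.09 ± 0.38 (SE; adjusted p = 0.978).

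Sod3, the extracellular enzyme bound to the cell surface, was mostly below the reference. The ratios were −0.24, −1.28, −1.11, −0.87 and −0.40 in CD 3, and −0.14, −0.39, 0.18, −0.81 and −0.31 in BD 3. The 3 lowest CD 3 rats were the 3 of slide D, which held no other group. The diet difference at 3 months was 0.48 ± 0.26 (SE; 95% interval −0.05 to 1.02; adjusted p = 0.755), while it was −0.03 on slide A alone and −0.04 ± 0.38 (SE) in the fit that blocks on slide. The 2 CD 3 rats on slides A and E had −0.24 and −0.40. At 14 months, with −1.05 to 0.20 in CD 14 and −0.83 to −0.17 in BD 14, the diet difference was 0.02 ± 0.23 (SE; 95% interval −0.47 to 0.50).

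Catalase spread most widely in CD 3. Its ratios were 0.18, 0.88, −1.94, −3.70 and −0.28 in CD 3, and −0.61, −0.32, 0.53, −0.96 and −0.33 in BD 3. The lowest value was in CD 3 replicate 4, the array with the fewest spots well above background, where the Cy5 signal was 539 against 1082 to 12242 in the other CD 3 rats. BD 14 rats lay between −0.47 and 0.46 (median −0.06). CD 14 rats split by slide, with −0.30 to −0.14 for the 3 on slide B, −1.30 and −1.17 on slide C and −1.22 on slide E. The SD within groups was 1.84 in CD 3 and 0.33 in BD 14.

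The diet difference of catalase was 0.63 ± 0.57 (SE; adjusted p = 0.877) at 3 months and 0.66 ± 0.52 (SE; adjusted p = 0.952) at 14 months. At 3 months the value rested on CD 3 replicate 4, being −0.05 without it. Within slide A it was −0.64, where the only CD 3 array was replicate 1, the array with the most non-uniform spots. At 14 months the mean was higher with BASE-diet in each of the fits with 1 array left out (0.55 to 0.78). Over all slides, mean log2 Cy5 differed by 0.04 and mean log2 Cy3 by −0.62, and Cy5 alone after quantile normalization gave 0.20 ± 0.55 (SE; adjusted p = 0.950). Cy5 alone with the slide as a block gave 1.28 ± 0.40 (SE; adjusted p = 0.180). On slide C, which holds every BD 14 rat, the 6 BD 14 rats were all above both CD 14 rats, by 1.15 on average. There the Cy5 signals were 2613 and 2121 in CD 14 and 4453 to 7634 in BD 14, while the Cy3 signals overlapped. The interaction of diet and time for catalase was 0.03 ± 0.77 (SE; adjusted p = 0.999), and −0.44 to 0.71 with 1 array left out. With the Cy5 channel alone and the slide as a block, a setting chosen after the data were seen, it was 2.35 ± 0.63 (SE; adjusted p = 0.0445), a call made for 4.40% of all probes under that setting. No member was called in another setting in the contrasts tested for it.

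The low members gave wide intervals. Gpx2 had a mean and SD of −0.66 ± 1.28 over the 5 CD 3 rats, −0.69 ± 0.77 over the 5 BD 3 rats, −0.12 ± 0.82 over the 6 CD 14 rats and −0.19 ± 1.76 over the 6 BD 14 rats. In BD 14 the ratios were −1.74, −1.79 and −1.67 in replicates 1, 3 and 4 and 0.56, 2.11 and 1.41 in replicates 2, 5 and 6. The ratio of 2.11 is over a Cy3 signal that was not well above background. The coding probe was well above background in Cy5 in the latter 3 rats but not in the former 3, and in Cy3 on only 1 of the 6 arrays. Over the 22 arrays both Gpx2 probes correlated at r = 0.75, with many values at background in 1 or both channels. Its diet difference at 14 months was −0.07 ± 0.67 (SE; 95% interval −1.45 to 1.31), so a change of 2-fold in either direction is within the interval.

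Gpx3 was well above background in only 2 of 5 CD 3 arrays. Its diet differences were −0.04 ± 0.55 (SE) at 3 months and 0.45 ± 0.50 (SE) at 14 months, with 95% intervals of −1.18 to 1.11 and −0.59 to 1.49. Both are ratios over a dim reference, and Cy3 was not well above background on 5 of 6 BD 14 arrays. With Cy5 alone the 14-month value was −0.35 ± 0.47 (SE), and without BD 14 replicate 6 it was 0.17. The sign at 3 months was not fixed either: the value was −0.30 to 0.32 with 1 array left out, −1.21 ± 0.84 (SE) with the slide as a block and −1.47 on slide A alone. Gpx7 had −2.01 to 1.71 in CD 3, −0.96 to 0.25 in BD 3, −0.81 to −0.13 in CD 14 and −1.73 to 0.08 in BD 14. Its spots on CD 14 replicate 1 were non-uniform, so that rat was dropped from the Gpx7 fit. The diet difference of Gpx7 was 0.10 ± 0.47 (SE) at 3 months and −0.44 ± 0.45 (SE) at 14 months. At 3 months it was −0.26 without CD 3 replicate 4, 0.67 without CD 3 replicate 1, −1.35 ± 0.61 (SE; adjusted p = 0.439) with the slide as a block and −2.27 on slide A alone. With Cy5 alone and the slide as a block it was −1.99 ± 0.71 (SE; adjusted p = 0.0729). The highest CD 3 value of Gpx7 (1.71), like those of Gpx2 (1.04) and Gpx3 (0.85), was that of replicate 1, the array with the most non-uniform spots. That array was also the only CD 3 array of slide A, so the slide A values above rest on it.

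Genes that make selenoproteins or supply the enzymes were grouped by known function into 6 lists. None of their 58 tested genes was called in any contrast (0% of probes called). Of 11 other selenoproteins, 8 were higher in BD 14 than in BD 3, with a median difference of 0.43 beside 0.07 over all probes, and 8 were higher in CD 14 than in CD 3, with a median of 0.03 beside 0.03. The mean of the list lay between −0.38 and −0.07 in BD 3 and between −0.06 and 0.21 in BD 14. On control diet it lay between −1.12 and 0.17 at 3 months and between −0.19 and 0.04 at 14 months. The lowest of these was CD 3 replicate 4, without which 7 of 11 were higher in CD 14 than in CD 3, with a median of 0.18. For time on BASE-diet, 3 of 3 neutrophil markers tested (median 0.97), 5 of 5 red cell markers (0.66), 4 of 4 bile duct markers (0.66), 2 of 3 lymphocyte markers (0.53) and 7 of 7 Kupffer cell markers (0.24) were also higher. For time on control diet the medians were 1.37, 0.35, 0.51, 0.58 and 1.19 in the same order. Their part in the selenoprotein values was not tested.

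Of the 11 other selenoproteins, 3 had an unadjusted p under 0.05 by limma for time on BASE-diet (7.44% of all probes): Sepw1, Selt and Selk. For time on control diet 3 of 11 had one (10.1% of all probes): Sepw1, Selk and Txnrd1. All were named after their values were seen. Selk, a protein of the endoplasmic reticulum membrane, was −0.45 to −0.21 in BD 3 and −0.15 to 0.72 in BD 14, a difference of 0.54 ± 0.18 (SE; adjusted p = 0.447). On control diet it was −0.49 to 0.03 at 3 months and 0.14 to 0.89 at 14 months, a difference of 0.71 ± 0.18 (SE; adjusted p = 0.177). Sepw1, a small selenoprotein of the thioredoxin-like fold, differed by 0.68 ± 0.31 (SE; adjusted p = 0.645) on BASE-diet and by 1.43 ± 0.31 (SE; adjusted p = 0.152) on control diet. Selt, another protein of the endoplasmic reticulum, differed by 0.45 ± 0.21 (SE; adjusted p = 0.657) on BASE-diet. Txnrd1, the cytosolic thioredoxin reductase, differed by 1.16 ± 0.48 (SE; adjusted p = 0.416) on control diet, and by 0.61 without CD 3 replicate 4. Of 8 genes of selenium supply and selenoprotein synthesis, 1 had such a p for time on control diet and 0 on BASE-diet. It was selenoprotein P (Sepp1), also named after its values were seen. Sepp1 differed by 0.97 ± 0.40 (SE; adjusted p = 0.411 by limma), and by 0.53 without CD 3 replicate 4. None of these genes passed the threshold.

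By diet, list genes with the largest statistics are given for each group. Among the other selenoproteins these were, at 3 months, Txnrd1 with 1.35 ± 0.50 (SE; adjusted p = 0.540) and Sep15 with −0.40 ± 0.19 (SE; adjusted p = 0.703). At 14 months they were the mitochondrial Txnrd2 with 0.56 ± 0.35 (SE) and Selk with −0.24 ± 0.17 (SE), both at an adjusted p of 0.952. Txnrd1 was as low as −3.50 in CD 3, against −0.27 to 0.60 in BD 3. Of 8 genes of selenium supply and selenoprotein synthesis, 6 were higher with BASE-diet at 3 months and 4 at 14 months. Their leading genes were Secisbp2, which binds the SECIS hairpin (−0.57 ± 0.35, SE), and the selenophosphate synthetase Sephs2 (0.50 ± 0.36, SE) at 3 months, and Secp43 (0.37 ± 0.30, SE) and Sephs1 (−0.23 ± 0.20, SE) at 14 months.

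Of 10 genes of glutathione supply and reduction, 5 were higher with BASE-diet at 3 months and 7 at 14 months. Leading at 3 months were Cbs, of the route from homocysteine to cysteine (0.42 ± 0.19, SE; adjusted p = 0.673), and glutathione reductase Gsr (0.75 ± 0.41, SE; adjusted p = 0.763). At 14 months glutathione synthetase Gss had 0.49 ± 0.31 (SE; adjusted p = 0.952). The other glutathione peroxidases tested were Gpx6, with 0.30 ± 0.38 (SE) at 3 months and 0.27 ± 0.35 (SE) at 14 months, and Gpx8 of the endoplasmic reticulum, with 0.10 ± 0.50 and −0.34 ± 0.45 (SE).

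Metal delivery and peroxisomal import matter for the dismutases and for catalase, which enters peroxisomes through the receptor Pex5. Of 10 such genes, 6 were higher with BASE-diet at 3 months and 5 at 14 months. Pex5 had 1.25 ± 0.37 (SE; adjusted p = 0.400) at 3 months, with −0.03 to 0.20 in BD 3 and −2.96 to −0.09 in CD 3. At 14 months it had 0.07 ± 0.34 (SE; adjusted p = 0.990), and the interaction was −1.18 ± 0.50 (SE; adjusted p = 0.998). Pex11a, which acts in peroxisome division, had 0.47 ± 0.54 (SE; adjusted p = 0.907) at 3 months and 1.10 ± 0.49 (SE; adjusted p = 0.952) at 14 months, where the copper transporter Slc31a1 had −0.42 ± 0.22 (SE; adjusted p = 0.952). Of 17 genes whose products release hydrogen peroxide or superoxide, 13 were higher with BASE-diet at 3 months (median 0.24 beside 0.03 over all probes) and 8 at 14 months (median −0.01 beside 0.05). At 3 months the list mean was −1.22 in CD 3 replicate 4, the array with the fewest spots well above background, −0.64 to −0.04 in the other CD 3 rats and −0.25 to 0.00 in BD 3. In that comparison 7 of 7 Kupffer cell markers (median 0.69) and 2 of 2 fat markers (0.93) were higher and 5 of 5 red cell markers lower (−0.67), and their part was not tested. The peroxisomal oxidases Acox2 (1.19 ± 0.44, SE; adjusted p = 0.540) and Hao1 (0.81 ± 0.49, SE; adjusted p = 0.793) led at 3 months. At 14 months Acox2 had −0.36 ± 0.40 (SE; adjusted p = 0.952) and Hao1 0.76 ± 0.45 (SE; adjusted p = 0.952). The interaction for Acox2 was −1.56 ± 0.60 (SE; adjusted p = 0.993).

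Several of these 3-month diet values rested on CD 3 replicate 4, and its removal was tried after the data were seen. Without it the difference was 0.16 for Hao1, −0.18 for Secisbp2, 0.19 for Sephs2, 0.43 for Gsr, 0.80 for Txnrd1 and 0.79 for Pex5. The genes higher with BASE-diet at 3 months were then 10 of 17 for the sources of hydrogen peroxide and superoxide (median 0.07), 3 of 10 for metal delivery and peroxisomal import (median −0.11), 4 of 8 for selenium supply (median −0.00), 5 of 10 for glutathione supply (median −0.04) and 4 of 11 for other selenoproteins (median −0.10). Acox2 kept its direction with each array left out (0.88 to 1.58), as did Cbs (0.29 to 0.48) and Sep15 (−0.48 to −0.32). Other diet differences that moved by over 1.5 times without 1 array were those of Gpx6, Gpx8, Secp43, Sephs1, Selk at 14 months and Pex11a at 3 months, of which only Gpx8 at 3 months changed sign (−0.17 to 0.54).

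**Figure D5:**
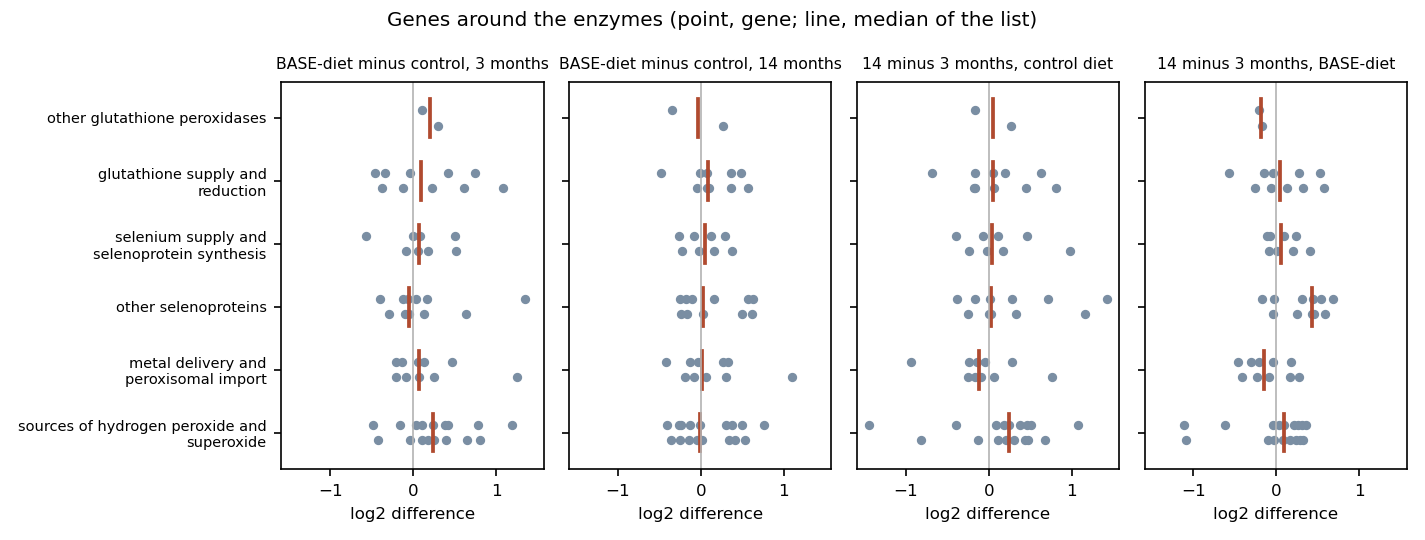
Log2 difference (horizontal axis) of each gene of 6 lists around the enzymes (rows) for diet at 3 and 14 months and for time on each diet; each point is a gene and the red line the median of its list. The other selenoproteins have their highest median, 0.43, for time on BASE-diet.

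Genes whose ratios ran most like Gpx1 over the 22 arrays were sought among 12318 genes well above background on all of them. The median correlation of these genes with Gpx1 was 0.00, and 90% lay between −0.34 and 0.35. The highest were the cell cycle inhibitor Cdkn1c (r = 0.73), the interferon-inducible Ifi27 (r = 0.71), the retinal dehydrogenase Aldh1a1 (r = 0.70), the transcript ENSRNOT00000061865 (r = 0.68) and Dixdc1 (r = 0.67). The lowest were Cyp3a9 (r = −0.78), Zmiz2 (r = −0.76), Cyp2b3 (r = −0.74), the methyltransferase Inmt (r = −0.72) and Ucma (r = −0.70). After the mean of each group was subtracted, Aldh1a1 stayed at 0.71 and Cyp3a9 at −0.64, while Cdkn1c was at 0.48 and Ucma at −0.28. With Cy5 alone the transcript ENSRNOT00000061865 was at 0.17. Ifi27 was −0.71 to 0.51 in BD 3 and 0.25 to 0.92 in BD 14. These correlations describe the 22 arrays, which share slides and the reference, and they carry no test.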

How the data were processed

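The authors deposited scanner output holding intensity values for each spot and dye, made with Agilent Feature Extraction (version 10.7.3.1 in the submitters' processing notes, 10.10.1.1 per the file headers), with background subtracted and dyes normalized by Lowess within each array. The deposited log10 values are Cy5 over Cy3 after that processing, and probe positions follow build rn4 per the file headers. The labels give Cy5 for the rat on every array, with no dye swap, while the methods name Cy3 for control rats; the labels were followed. The authors also deposited log2 values of 3017 entries, of which only Gpx1 is a member. They report the same number of differentially expressed genes by ANOVA, and real-time PCR of Gpx1 that matched their arrays. Of their 22 columns, 17 correlated above 0.9 with the array of the same name, and only those were used, as an alternative. The study rejected 1 array of each 3-month group. Whether a rejected array is among the 22 analysed here could not be told. CD 3 replicate 1 was the best match of none of the authors' columns, and its values are used throughout.

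From the files, log2 ratios were averaged by probe over the spots left after removal of controls and of spots called non-uniform, with no scaling between arrays. Testing took the 19434 probes for which some group had, on all its arrays, a share of 0.5 or more of the spots well above background in Cy5. The main probe of a gene had the highest mean Cy5 signal. The comparisons used limma 3.58.1 under R 4.3.3 (4 group means, eBayes, prior degrees of freedom 3.37), with Benjamini-Hochberg adjustment over all probes tested and a threshold of 0.05. The study itself used a one-way ANOVA with Tukey's HSD. Summaries used Python 3.11.15 with pandas 2.3.3 and numpy 2.4.6, and plots matplotlib 3.10.9. The fit was tested on simulated data. The number of arrays and the signal over background limit the precision. The labels number the rats of each group but do not tie a number to a rat of another group.

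Members and lists were chosen with earlier results of these data known. Named genes are the 9 members, the 5 highest and 5 lowest correlations with Gpx1, and, for each list, the genes past the threshold or else the 2 with the largest statistic in each diet comparison; others are said to be named after their values were seen. Some genes that this rule picks are not reported here. Alternatives were normexp background correction (offset 50) with loess, quantile-normalized Cy5 alone, arrays centred on their median, every probe or only the 13860 probes of a strict detection filter, outlier spots kept, array weights, a block for the slide or for the number of the rat, only the 2 groups compared, the methods' test, any probe of a gene, the authors' log2 values, values within a slide, and arrays left out. The slide block with Cy5 alone, and the gene lists without CD 3 replicate 4, were chosen after seeing the data.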

Additional observations from a re-analysis of the deposited data

Results flagged for a closer look

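Each of the 11 probes was read in the 4 groups, 44 sets of 5 or 6 rats (fewer values where spots were dropped), and the highest or lowest rat was set apart where its gap to the next exceeded Dixon's 95% limit for the range of the group. Chance sets apart about 1 in 20 such groups, and 2 of 44 were found. Sod2 of BD 14 replicate 2 had a log2 ratio of 3.08, and the next highest rat of that group had 1.00. The coding probe of Gpx2 in CD 3 replicate 1 had 1.51, and the next highest rat had −0.73. That array had the most non-uniform spots of all, and the probe was not tested between groups.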

How the results depend on the processing

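No member was called in the diet comparisons or the interaction, and none of the 8 other than Gpx1 in the time comparisons, under any alternative run but one (the 2-group fit and the ANOVA give no interaction), including the rat's number as a block (0 members called with the replicate block in each contrast), which changed no call. The deviations of the 31 pairs of arrays with the same number correlated at −0.27 to 0.29 (median −0.01), and 5 arrays correlated best with their own number, so the numbers were not taken to pair the rats. The exception was Cy5 alone with the slide as a block, chosen after seeing the data, where 1 member (Cat) was called in the interaction. With each array left out in turn the counts ran from 0 to 0. The 45 single differences changed sign in 14 cases with the slide as a block, in 13 with Cy5 alone, in 6 with normexp and loess, in 4 with array weights, in 4 without the 2 arrays with most non-uniform spots in 2 with median-centred arrays and in 8 with Cy5 alone and the slide as a block. Of 9 differences within a slide, 3 changed sign on slide A, 2 on slide C and 4 on slide E. With an array left out, 57 of 990 values changed sign, in 14 of the 45 differences. They changed in no case without the detection filter, with outlier spots kept or with the replicate block. The Gpx4 difference in time on BASE-diet kept its sign under all of these. The strict filter left no value for Gpx2, Gpx3 and Gpx7. From the authors' columns that matched their array, Gpx1 differed by 0.00 between diets at 14 months and by 1.02 between times on BASE-diet; no CD 3 column matched the array of its own name, 4 of them matching another CD 3 array at r = 0.996 to 0.997 and none having CD 3 replicate 1 as its best match, so they were not used and other differences had no value. Over all probes, where ratios gave no call, Cy5 alone gave 262 for diet at 3 months and 13 and 46 for time on control diet and BASE-diet, and with the slide block 2121, 94, 2, 4 and 856 for diet at 3 and 14 months, time on each diet and the interaction. Array weights gave 5 for diet at 14 months and 99 for time on BASE-diet, the 2 groups alone 22 and the strict filter 2 for the latter, and median-centring or leaving out the 2 arrays with most non-uniform spots 2 for diet at 3 months. Without CD 3 replicate 5 there were 93 for diet at 3 months and 205 for time on control diet, and without any other single array at most 5. The ANOVA with Tukey's HSD called 1 of 18736 probes for diet at 14 months, which was no main probe of a member. It called 1 for time on each diet, none of them a main probe of the 8 members other than Gpx1. Before adjustment the counts were 391 and 183 for diet at 3 and 14 months and 587 and 411 for time on control diet and BASE-diet. The cause was not tested.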
